A study of Mus musculus with 8 samples.

Results

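Mucins and mucosal barrier secretory genes were examined in the ventral prostates of hSKP2-KI and wild-type (WT) mice. The group holds 10 of the 36333 genes in the expression table: Fcgbp, 9530053A07Rik, Muc1, Muc4, Muc19, Muc20, Agr2, Pigr, Ltf and Lrrc31. They were picked by gene name with the hSKP2-KI to WT differences of these same libraries already known, so those differences are described here and carry no test. Ventral lobes were collected at 12 months of age from 4 hSKP2-KI males and 4 WT males, and poly-A selected RNA was sequenced with 1 library per mouse. The paper bred heterozygous hSKP2-KI females to wild-type FVB/N males. The strain of those females is not given in the sources used here. hSKP2-KI mice carry the coding sequence of human SKP2, the F-box subunit of a ubiquitin ligase, behind a P2A peptide in exon 1 of the endogenous probasin gene (Pbsn), whose promoter is active in prostate epithelium. The founder line behind the sequenced mice is not given in the sources used here. WT mice carry no insert, and neither group was treated. All levels are TPM, the transcript abundance of a gene scaled to a fixed total per library. TPM correct for transcript length, so that levels of different genes can be set side by side. Read counts were not used here, so the depth of each library is not known beyond the read number that the paper states.

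A mucosal surface is covered by a gel of large secreted mucins, whose threonine- and serine-rich stretches are densely O-glycosylated. The gel is cross-linked through von Willebrand D domains, which the gel-forming mucins share with the mucus protein FCGBP. Membrane mucins form a glycan layer on the apical cell surface below it, and the epithelium adds IgA carried across the cell by the polymeric immunoglobulin receptor, together with iron-binding and antimicrobial proteins. The prostate is an exocrine gland that opens into the urethra, and its secretory epithelium makes several of these products.

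Skp2 stood at 37.3 to 60.6 TPM in the hSKP2-KI libraries and at 1.05 to 2.27 TPM in the WT libraries. Pbsn stood at 93.0 to 174 TPM in hSKP2-KI and at 3980 to 9232 TPM in WT, so both entries matched the labels. Skp2 here is the mouse entry (Entrez 27401) and reads were mapped to the mouse genome, so its TPM do not measure the human insert directly. Summed TPM of 9 ventral prostate markers was 323504 to 345849 in hSKP2-KI and 415534 to 464651 in WT, and all 8 seminal vesicle markers were below 1 TPM in every library. Every library sums to 1000000 TPM, and over the 13080 genes tested the log2 fold changes centred on a median of 0.23. Median-ratio scaling brought that median to -0.01, and differences that stand without a scaled value are those of the TPM as deposited. By limma with an adjusted p under 0.05, 32.7% of the tested genes were higher in hSKP2-KI and 1.23% lower, against 6.92% and 4.21% after median-ratio scaling. Every hSKP2-KI value lay above every WT value for 34.0% of the tested genes, and for 10.3% after that scaling. In bulk tissue, more cells of a type and more RNA per cell cannot be told apart.

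Of the 10 genes, 8 passed the filter on low levels, which asked for 1 TPM or more in 4 or more of the 8 libraries. Lrrc31 reached 1 TPM in 0 WT libraries, 9530053A07Rik and Ltf in 2 each, and Muc20 in 3. These genes therefore passed only with the help of their hSKP2-KI libraries, and Muc1 and Muc4 did not pass. Among the 8 genes, 7 were higher in hSKP2-KI by limma and 0 lower, and 4 were higher after median-ratio scaling (Fcgbp, Muc19, Muc20 and Lrrc31). Every hSKP2-KI value lay above every WT value for 6 of them as deposited and for 5 after scaling. Since the genes were chosen on this contrast, these counts say nothing further beside the shares of all genes given above.

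In WT prostates the order of mean TPM was Pigr, Agr2, Muc19, Fcgbp, 9530053A07Rik, Ltf, Muc20, Muc1, Lrrc31 and Muc4. Pigr and Agr2 ranges overlapped, as did those of Muc19 and Fcgbp, and those of each neighbouring pair from 9530053A07Rik to Muc1. In hSKP2-KI prostates the order was Agr2, Pigr, Muc19, 9530053A07Rik, Fcgbp, Lrrc31, Ltf, Muc20, Muc1 and Muc4. Ranges there were apart only between Pigr and Muc19, between Fcgbp and Lrrc31, and between Muc20 and Muc1. 9530053A07Rik was above Fcgbp in only 1 hSKP2-KI mouse, and Muc19 above Fcgbp in only 1 WT mouse. Lrrc31 moved from the 9th place in WT to the 6th in hSKP2-KI. hSKP2-KI replicate 4 held the highest hSKP2-KI value for 5 of the 10 genes and replicate 1 for 4, whereas WT replicate 2 held the highest WT value for 7.

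**Figure D1:**
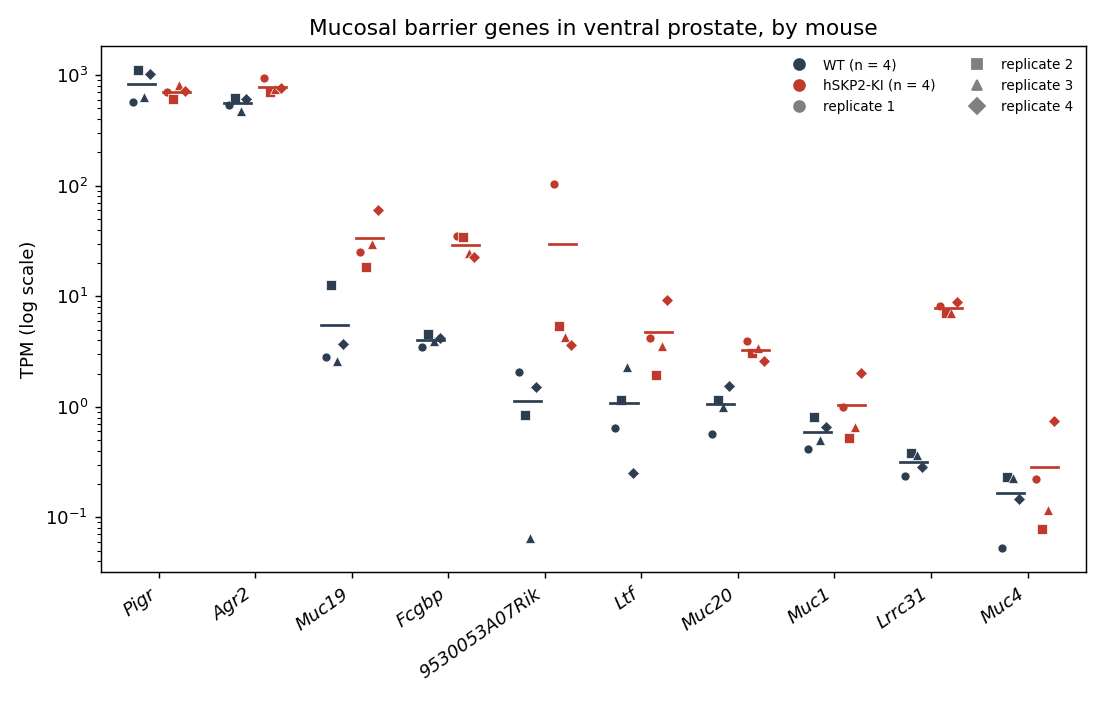
TPM of the 10 barrier genes in each mouse on a log axis, ordered by WT mean, with WT in dark blue and hSKP2-KI in red. Point shapes give the replicate number and horizontal bars the mean of 4 mice. Pigr and Agr2 lie above 400 TPM in all 8 mice, Lrrc31 shows the cleanest gap between genotypes, and 1 hSKP2-KI mouse stands far above the others for 9530053A07Rik.

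Fcgbp (Entrez 215384) encodes the IgG Fc-binding protein, a large mucus protein built from repeated von Willebrand D domains. 9530053A07Rik (Entrez 319482) is an FCGBP-like gene directly beside it. On mouse chromosome 7 (GRCm38) Fcgbp spans chr7:28071236-28120862 and 9530053A07Rik chr7:28129466-28164811, both protein-coding on the plus strand and 8603 bp apart. Their promoters are printed because the 2 genes were high together in hSKP2-KI, and because the 2 windows were the most alike among those of the group. Each window runs from 250 bases before to 50 bases after the RefSeq start (GRCm38.p6), read 5′ to 3′ on the plus strand, with the motif TATATA in capitals.

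Fcgbp, chr7:28070986-28071285: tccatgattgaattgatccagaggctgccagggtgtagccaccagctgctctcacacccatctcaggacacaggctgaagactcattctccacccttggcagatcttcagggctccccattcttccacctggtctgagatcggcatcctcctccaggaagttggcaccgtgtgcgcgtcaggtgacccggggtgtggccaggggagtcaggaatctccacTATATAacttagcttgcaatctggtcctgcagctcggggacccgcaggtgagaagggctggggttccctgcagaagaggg

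9530053A07Rik, chr7:28129216-28129515: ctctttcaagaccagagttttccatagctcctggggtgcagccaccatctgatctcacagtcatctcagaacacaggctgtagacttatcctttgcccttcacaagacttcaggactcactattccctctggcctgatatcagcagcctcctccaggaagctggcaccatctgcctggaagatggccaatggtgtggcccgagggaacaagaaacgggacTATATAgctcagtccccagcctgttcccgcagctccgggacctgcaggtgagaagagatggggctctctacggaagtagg

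Aligned over 307 columns, these windows were identical at 223, or 72.64%, against 43.99% to 53.01% for the other 35 pairs among the 9 barrier-gene promoters in RefSeq (Muc19 was not matched). In both the motif starts at position 221 of the window, 30 bases before the start site, and TATATA was found on either strand in 5.67% of all 32851 mouse promoter windows. AGAACA, the half-site of the androgen receptor element, was in the windows of 9530053A07Rik and Pigr and in 19.0% of all windows. TATAAA was in the windows of Muc1 and Muc4 and in 13.6% of all, and the E-box CACGTG in that of Pigr and in 7.15% of all. Motif matches describe the sequence alone.

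Fcgbp measured 34.8, 34.0, 24.6 and 22.7 TPM in hSKP2-KI replicates 1 to 4, and 3.47, 4.59, 3.93 and 4.23 TPM in WT replicates 1 to 4. All 4 hSKP2-KI mice lay well above the WT mice, and both groups were tight. Mean TPM was 29.0 ± 6.26 (SD, n = 4) against 4.06 ± 0.473 (SD, n = 4), a ratio of 7.16. On the log2(TPM + 1) scale the fold change was 2.55 (standard error 0.15), and 2.31 after median-ratio scaling.

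9530053A07Rik measured 105, 5.41, 4.25 and 3.62 TPM in hSKP2-KI replicates 1 to 4, and 2.05, 0.838, 0.0651 and 1.52 TPM in WT replicates 1 to 4. The groups did not overlap, but hSKP2-KI replicate 1 alone stood far above the other hSKP2-KI mice. The mean of 29.5 ± 50.1 (SD, n = 4) against 1.12 ± 0.859 (SD, n = 4) gave a ratio of 26.4, which was 3.96 without that mouse. Its log2 fold change was 2.52 (standard error 0.84), 1.45 without hSKP2-KI replicate 1, and 2.35 after median-ratio scaling.

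The 2 neighbours shared the direction but not the proportion. 9530053A07Rik made up 75.1% of their summed TPM in hSKP2-KI replicate 1 and 13.7% to 14.7% in the other 3 hSKP2-KI mice. In WT mice the share was 37.1%, 15.4%, 1.63% and 26.5% in replicates 1 to 4. Without the replicate that stands apart, the pair was thus mostly Fcgbp in hSKP2-KI. The genes outside the pair did not follow. Psmc4, a proteasome subunit gene on one side, had a log2 fold change of 0.13 (limma adjusted p = 0.186), and Fbl, the fibrillarin gene on the other, 0.25 (limma adjusted p = 0.0682). After median-ratio scaling these values were -0.14 and -0.01.

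The high value of 9530053A07Rik in hSKP2-KI replicate 1 was the largest gap of 1 library over all 7 others among the 13080 genes in that mouse, at 4.04 on the log2(TPM + 1) scale. Next came Tgm4, the prostate transglutaminase that cross-links seminal proteins, with a gap of 3.34. Tgm4 measured 77.5 TPM in that mouse, 4.99 to 6.74 TPM in the other hSKP2-KI mice and 1.06 to 2.16 TPM in WT. The third gene of this ranking, Prph, had a gap of 1.63, so 9530053A07Rik and Tgm4 stood apart from the rest of that library. Tgm4 is known best from the anterior lobe of the mouse prostate, and the part of tissue from another lobe in these values was not tested. Seminal vesicle markers of that library summed to 0.0321 TPM.

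**Figure D2:**
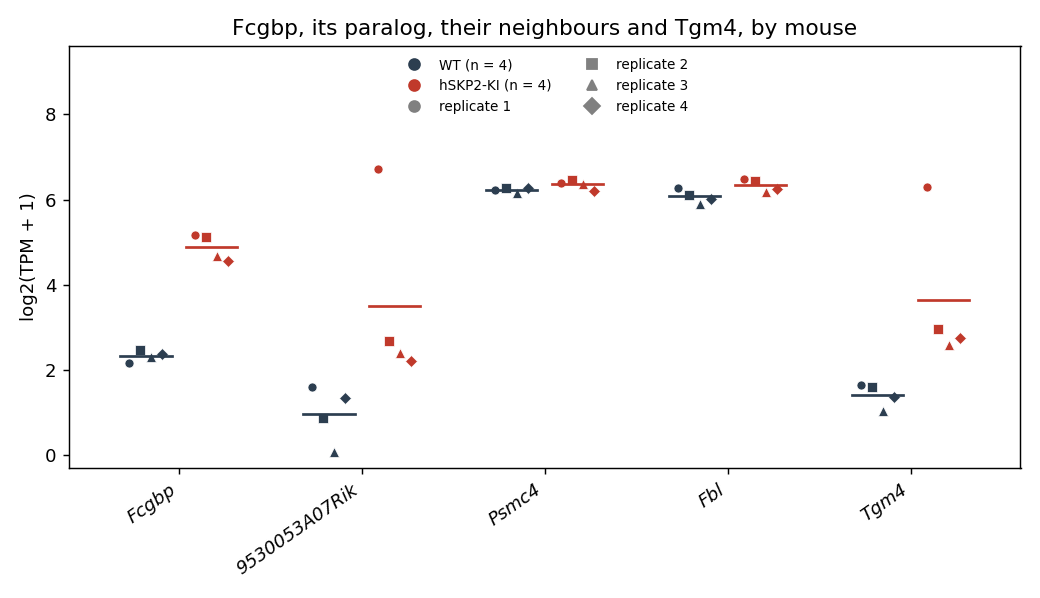
Levels of Fcgbp, 9530053A07Rik, the flanking genes Psmc4 and Fbl, and Tgm4 in each mouse as log2(TPM + 1), with WT in dark blue, hSKP2-KI in red and bars at the mean of 4 mice on that scale. Fcgbp separates the genotypes tightly, the flanking genes overlap, and hSKP2-KI replicate 1 stands alone for 9530053A07Rik and Tgm4.

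By the root mean square difference over the 8 libraries in log2(TPM + 1), each gene centred on its WT mean, the genes nearest to Fcgbp among 13079 were Lrrc31 (0.27), Krt4 (0.30), Ugt2b34 (0.39), Ccdc68 (0.42) and Msln (0.45). Krt4 is a keratin of luminal cells in the proximal prostate ducts, and Msln encodes the surface protein mesothelin. Krt4 measured 215, 240, 163 and 118 TPM in hSKP2-KI against 33.8, 25.2, 31.2 and 45.5 TPM in WT. Muc19 ranked 36th by this measure and 9530053A07Rik 720th. As only the WT mean is subtracted, the measure takes in the size of the hSKP2-KI to WT difference. The barrier genes were chosen on that difference, so nearness to them carries no test. Lrrc31 and Msln reached 1 TPM in 0 WT libraries and Ugt2b34 in 1. These genes passed the low-level filter only with the help of their hSKP2-KI libraries. The 6 proximal luminal markers, Krt4 among them, summed to 505 to 778 TPM in hSKP2-KI and 211 to 233 TPM in WT, and all 6 passed the limma test as deposited and after scaling. Their part in the Fcgbp and Lrrc31 differences was not tested.

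Lrrc31 (Entrez 320352) encodes a leucine-rich repeat protein known from barrier epithelium, and lies at chr3:30679058-30699843 on the minus strand. It measured 8.09, 7.05, 7.05 and 8.90 TPM in hSKP2-KI replicates 1 to 4, and 0.238, 0.385, 0.364 and 0.284 TPM in WT replicates 1 to 4. The hSKP2-KI values were close together and far above the WT values, and among the 10 genes only Muc4 had a lower WT mean. The mean of 7.77 ± 0.898 (SD, n = 4) against 0.318 ± 0.0686 (SD, n = 4) gave a ratio of 24.5. The log2 fold change was 2.73 (standard error 0.12), a value that the added 1 holds down, and it was 4.24 with 0.1 added and 2.58 after median-ratio scaling. With any 1 mouse left out the ratio stayed between 22.6 and 26.3.

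The Lrrc31 promoter is printed because this gene went from near 0 to a steady level in all 4 hSKP2-KI mice. The window is in GRCm38.p6, read 5′ to 3′ on the minus strand, with both copies of an 11-base direct repeat in capitals.

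Lrrc31, chr3:30699794-30700093: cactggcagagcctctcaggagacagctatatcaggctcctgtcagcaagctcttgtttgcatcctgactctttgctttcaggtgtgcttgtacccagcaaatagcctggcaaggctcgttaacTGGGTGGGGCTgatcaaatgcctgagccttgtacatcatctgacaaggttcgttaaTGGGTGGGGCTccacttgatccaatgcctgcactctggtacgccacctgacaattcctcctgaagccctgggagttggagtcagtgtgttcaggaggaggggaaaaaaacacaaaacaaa

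The copies start at positions 125 and 181 of the window, 56 bases apart. A direct repeat of at least 11 bases was found in 13.2% of all 32851 promoter windows. The longest repeats in the Fcgbp and 9530053A07Rik windows were 7 and 9 bases.

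Muc19 (Entrez 239611) encodes a gel-forming mucin known from salivary and airway glands. It spans chr15:91838326-91934555 on the plus strand and is annotated as a processed transcript that carries a reference genome error tag. It measured 25.2, 18.5, 29.9 and 60.4 TPM in hSKP2-KI replicates 1 to 4, and 2.85, 12.8, 2.61 and 3.73 TPM in WT replicates 1 to 4. All 4 hSKP2-KI mice were above all WT mice, with hSKP2-KI replicate 4 highest and WT replicate 2 the high library of its group. Mean TPM was 33.5 ± 18.5 (SD, n = 4) against 5.49 ± 4.88 (SD, n = 4), a ratio of 6.10, which was 10.9 without WT replicate 2. Its log2 fold change was 2.52 (standard error 0.43), and 2.28 after median-ratio scaling.

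Smgc, a submandibular gland protein gene, shares the Muc19 locus. Its start lies 61 bp away on the same strand, the 2 genes overlap over 23113 bp, and 95 exonic bases are common to both, 2.786% of those of Smgc and 1.043% of those of Muc19. Smgc measured 16.3, 5.99, 10.3 and 34.3 TPM in hSKP2-KI replicates 1 to 4, and 2.27, 10.5, 1.27 and 2.14 TPM in WT replicates 1 to 4. Its log2 fold change was 1.87 (limma adjusted p = 0.0238), and 1.66 after median-ratio scaling (limma adjusted p = 0.0791). The same libraries were high for both genes, and how reads on the shared bases were assigned is not stated.

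By the same root mean square difference, the genes nearest to Muc19 were Clca1 (0.32), Smgc (0.55), Sult5a1 (0.59), Mt3 (0.63) and Lrrc31 (0.66). The size of the genotype difference enters here too. Clca1, a metalloprotease that goblet cells secrete into mucus, measured 8.23, 5.11, 9.88 and 22.3 TPM in hSKP2-KI replicates 1 to 4, and 0.668, 6.85, 0.680 and 0.758 TPM in WT replicates 1 to 4. WT replicate 2 thus stood inside the hSKP2-KI range and the other WT mice well below it. Clca1 was higher in hSKP2-KI by 2.13 on the log2 scale (standard error 0.51, limma adjusted p = 0.0122), and by 1.95 after median-ratio scaling (limma adjusted p = 0.0414). Under quantile normalization the call was lost (log2 fold change 1.89, limma adjusted p = 0.0528). The ratio of its mean TPM was 5.08, and 16.2 without WT replicate 2.

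Clca1 was the 1 gene called of 3 tested among the goblet cell products and partners, and the other 2 spread widely. Of all tested genes, 32.7% were called higher as deposited and 6.92% after median-ratio scaling. Clca1 reached 1 TPM in only 1 WT library, so it passed the low-level filter only with its hSKP2-KI libraries. The count in this list was 0 under quantile normalization and 2 without WT replicate 4. Itln1, a lectin for microbial glycans, measured 207, 137, 328 and 871 TPM in hSKP2-KI and 68.4, 91.0, 1.07 and 340 TPM in WT (log2 fold change 2.71, limma adjusted p = 0.106, and 2.46 after median-ratio scaling). Tff3, the trefoil factor of goblet cells, measured 6.03, 0, 12.6 and 33.9 TPM in hSKP2-KI and 0.553, 14.5, 0 and 3.95 TPM in WT (log2 fold change 1.20, limma adjusted p = 0.358, and 1.06 after median-ratio scaling). hSKP2-KI replicate 4 was highest for Muc19, Smgc, Clca1, Tff3 and Itln1 alike. The other 11 genes of that list, which include Tff1, Zg16, Retnlb and Agr3, stayed at or below 0.755 TPM in every library, and 5 of them were listed at 0 throughout.

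**Figure D3:**
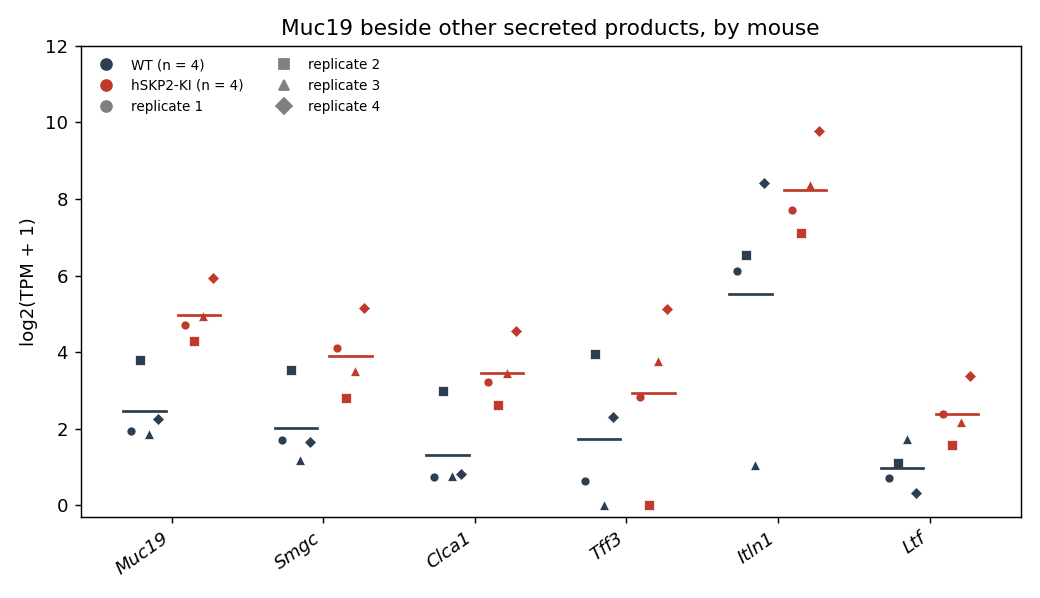
Levels of Muc19, its locus partner Smgc, the goblet cell products Clca1, Tff3 and Itln1, and Ltf in each mouse as log2(TPM + 1), with WT in dark blue, hSKP2-KI in red and bars at the mean of 4 mice on that scale. hSKP2-KI replicate 4 (diamond) is the highest hSKP2-KI mouse for all 6 genes, and WT replicate 2 (square) is the highest WT mouse for Muc19, Smgc, Clca1 and Tff3.

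hSKP2-KI replicate 4 also stood apart for Upk2, Upk3a and Krt20 among the 6 urothelial markers. Upk2 measured 13.6 TPM in that mouse and 3.64 to 4.79 TPM in the other hSKP2-KI mice, against 0.983 to 1.67 TPM in WT. Upk3a measured 12.5 TPM in that mouse and at most 0.312 TPM in any of the 7 other libraries. Krt20, also below the filter, measured 2.78 TPM in that mouse and at most 0.550 TPM in the other 7. Upk1b was higher in hSKP2-KI replicate 1 than in replicate 4 (43.8 against 43.2 TPM), and Upk3b was higher in replicate 2 (2.58 against 1.86 TPM). The 6 markers summed to 725 to 1017 TPM in hSKP2-KI and 398 to 663 TPM in WT, with the lowest hSKP2-KI sum in replicate 4, and most of each sum was Upk1a. Without that mouse the ratio of mean Muc19 TPM was 4.47 in place of 6.10. The part of urothelial tissue in its Muc19 and Clca1 levels was not tested.

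The other gel-forming and membrane mucins were at low levels. Muc2, Muc3, Muc5ac, Muc5b, Muc6, Muc13, Muc15, Muc16 and Mucl2 were below 1 TPM in every library, and the highest value among these 9 genes was 0.390 TPM, of the intestinal gel mucin Muc2 in hSKP2-KI replicate 3. Muc3a, Muc17, Muc21, Mucl1 and Mucl3 had no entry under these names among the genes measured. Muc19 was therefore the 1 gel-forming mucin above 1 TPM among those measured.

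Muc20 (Entrez 224116) encodes a short membrane mucin known to bind the receptor MET. It measured 3.96, 3.07, 3.39 and 2.62 TPM in hSKP2-KI replicates 1 to 4, and 0.572, 1.15, 1.00 and 1.55 TPM in WT replicates 1 to 4. All 4 hSKP2-KI mice were above all WT mice, with a mean of 3.26 ± 0.562 (SD, n = 4) against 1.07 ± 0.404 (SD, n = 4), a ratio of 3.05. The log2 fold change was 1.05 (standard error 0.16), and 0.89 after median-ratio scaling.

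Muc1 (Entrez 17829) and Muc4 (Entrez 140474), the membrane mucins that interact with galectin-3 and with ERBB receptors, were near the lower end of the scale. Muc1 measured 0.994, 0.521, 0.654 and 2.02 TPM in hSKP2-KI replicates 1 to 4, and 0.414, 0.811, 0.498 and 0.654 TPM in WT replicates 1 to 4. Muc4 measured 0.221, 0.0777, 0.116 and 0.737 TPM in hSKP2-KI replicates 1 to 4, and 0.0524, 0.234, 0.229 and 0.145 TPM in WT replicates 1 to 4. For both genes the genotypes overlapped, and the highest value was that of hSKP2-KI replicate 4. Without that mouse the ratio of mean TPM was 1.22 for Muc1 and 0.837 for Muc4, against 1.76 and 1.74 with it.

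Muc4 and Muc20 are convergent neighbours on chromosome 16, at chr16:32735886-32782391 on the plus strand and chr16:32777419-32797435 on the minus strand. They overlap over 4973 bp, and 627 exonic bases are common to both, 15.57% of those of Muc20. Strand-specific counting is not stated, so reads there cannot be assigned to one gene with certainty. Muc4 was lower than Muc20 in every library.

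Binding partners of membrane mucins were listed beside them, and all 9 were tested. By limma 5 were higher in hSKP2-KI (Egfr, Met, Lgals3, Ctnnb1 and Grb2) and 0 lower, also at an unadjusted p under 0.05. Of all tested genes, 32.7% were higher by limma. The count of 5 was 2 with no filter and without hSKP2-KI replicate 4, WT replicate 1 or WT replicate 3, and 3 without hSKP2-KI replicate 1, 2 or 3. After median-ratio scaling Met and Lgals3 were higher and Jup, the plakoglobin gene, lower (log2 fold change -0.23, limma adjusted p = 0.0313). Met, the hepatocyte growth factor receptor that MUC20 binds, measured 15.0, 16.1, 16.0 and 13.9 TPM in hSKP2-KI and 5.09, 8.00, 6.82 and 6.64 TPM in WT. Met rose by 1.10 on the log2 scale (standard error 0.12, limma adjusted p = 0.000502), and by 0.86 after scaling (limma adjusted p = 0.00125). Egfr, Ctnnb1 and Grb2 were higher by 0.49, 0.24 and 0.27 on the log2 scale (limma adjusted p = 0.028, 0.0353 and 0.035), and none of these 3 passed after scaling. The ligand gene Hgf stayed at 0.672 to 1.41 TPM over all libraries.

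Lgals3, the gene of galectin-3, measured 29.6, 139, 21.9 and 20.2 TPM in hSKP2-KI and 7.51, 6.53, 6.23 and 10.2 TPM in WT. All hSKP2-KI mice were above all WT mice, and replicate 2 stood apart (log2 fold change 2.16, limma adjusted p = 0.00943, and 1.91 after median-ratio scaling). Without hSKP2-KI replicate 2 the log2 fold change of Lgals3 was 1.53 (limma adjusted p = 0.0011). Macrophages also make galectin-3, and the 7 macrophage markers summed to 433 TPM in that mouse against 212 to 237 TPM in the other hSKP2-KI mice and 93.5 to 193 TPM in WT, a part that was not tested. Erbb2, the receptor that MUC4 binds, had a log2 fold change of 0.10 (limma adjusted p = 0.31), and Erbb3 of 0.10 (limma adjusted p = 0.644), each -0.16 after median-ratio scaling. Median log2 fold change of the 9 partners was 0.24, beside 0.23 for all tested genes.

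Agr2 (Entrez 23795) encodes an endoplasmic reticulum disulfide isomerase needed to fold mucins. It measured 943, 701, 747 and 765 TPM in hSKP2-KI replicates 1 to 4, and 535, 619, 478 and 607 TPM in WT replicates 1 to 4. Agr2 was abundant in every mouse, and the difference was small beside those of the mucus proteins. Mean TPM was 789 ± 106 (SD, n = 4) against 560 ± 65.7 (SD, n = 4), a ratio of 1.41. The log2 fold change of 0.49 (standard error 0.11) became 0.22 after median-ratio scaling, where the genotypes overlapped.

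Enzymes of mucin O-glycosylation build the sugar chains of these proteins. Of 26 genes, 17 were tested, and by limma 6 were higher in hSKP2-KI (Galnt2, Galnt4, Galnt15, Gcnt1, St6galnac2 and St3gal1) and 0 lower, with a median log2 fold change of 0.21 (-0.05 after median-ratio scaling) beside 0.23 for all tested genes. No gene of the list was lower at an unadjusted p under 0.05 either. The share of all tested genes called higher by limma was 32.7%. After median-ratio scaling Galnt15 and St3gal1 were higher and Galnt10 was lower, with log2 fold changes of 0.57, 0.49 and -0.28 (limma adjusted p = 0.0337, 0.0482 and 0.0488). Galnt15, of the family that attaches the first sugar, measured 7.19, 11.7, 9.06 and 11.8 TPM in hSKP2-KI and 3.88, 5.94, 5.10 and 6.12 TPM in WT (log2 fold change 0.80, limma adjusted p = 0.00738). The sialyltransferase genes St3gal1 and St6galnac2 were higher by 0.72 and 0.70 on the log2 scale (limma adjusted p = 0.00798 and 0.0161). The core 1 enzyme gene C1galt1 had a log2 fold change of -0.04 (limma adjusted p = 0.894) and its chaperone gene C1galt1c1 stood at 41.5 ± 1.37 TPM against 41.6 ± 4.69 TPM (SD, n = 4 each, limma adjusted p = 0.981). The enzymes of mucin-type glycans known from intestine, Gcnt3, B3gnt6 and St6galnac1, were at most 0.376 TPM in any library.

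Among 13 transcription factor genes of secretory epithelium, 9 were tested and 4 were higher in hSKP2-KI by limma (Klf4, Ehf, Creb3l4 and Grhl2). This stands beside 32.7% of all tested genes higher. Median log2 fold change of the list was 0.39, and 0.13 after median-ratio scaling, beside 0.23 and -0.01 for all tested genes. After that scaling 0 genes of the list were higher by limma, and at an unadjusted p under 0.05 there were 2 higher and 3 lower. Foxa1, the luminal pioneer factor, was lower after that scaling (log2 fold change -0.33, limma adjusted p = 0.0347) and had a log2 fold change of -0.06 as deposited (limma adjusted p = 0.599). Klf4, a factor of goblet cell differentiation, measured 15.6, 19.9, 21.2 and 22.8 TPM in hSKP2-KI and 8.21, 16.7, 11.7 and 10.7 TPM in WT (log2 fold change 0.73, limma adjusted p = 0.0136, and 0.48 after scaling). Ehf measured 154, 130, 163 and 163 TPM in hSKP2-KI and 91.7, 113, 99.7 and 121 TPM in WT (log2 fold change 0.52, limma adjusted p = 0.00625, and 0.25 after scaling). Creb3l4 was higher by 0.42 and Grhl2 by 0.39 on the log2 scale (limma adjusted p = 0.0297 and 0.018). Spdef, which drives goblet cell maturation in gut and airway, stood at 33.1 ± 3.82 TPM (SD, n = 4) in hSKP2-KI and 33.1 ± 2.34 TPM (SD, n = 4) in WT (limma adjusted p = 0.986). Atoh1 and Foxa3 stayed below 1 TPM in every library.

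Pigr (Entrez 18703) encodes the polymeric immunoglobulin receptor, which carries IgA and IgM through the epithelial cell into the lumen. It measured 702, 604, 808 and 722 TPM in hSKP2-KI replicates 1 to 4, and 568, 1118, 634 and 1018 TPM in WT replicates 1 to 4. The genotypes overlapped, and WT replicates 2 and 4 were the highest of all 8 mice. Mean TPM was 709 ± 83.7 (SD, n = 4) against 834 ± 274 (SD, n = 4), a ratio of 0.850, and the log2 fold change was -0.18 (standard error 0.20), and -0.45 after median-ratio scaling. Pigr was the 1 gene of the 8 above the filter whose mean was lower in hSKP2-KI.

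Of the ligand side, the antibody constant region genes Igha, Ighm and Igkc were listed at 0 in all 8 libraries, which does not show that these transcripts were absent. Jchain, the joining chain of polymeric IgA and IgM, measured 26.8, 25.3, 32.8 and 39.8 TPM in hSKP2-KI and 8.27, 19.9, 45.7 and 24.2 TPM in WT (log2 fold change 0.54, limma adjusted p = 0.263). Of the 4 tested genes of the IgA, J chain and plasma cell list, Derl3 was higher in hSKP2-KI (log2 fold change 0.62, limma adjusted p = 0.00638), and 0 passed after median-ratio scaling, 1 at an unadjusted p under 0.05. Without WT replicate 3 the count was 2. Beside these counts, 32.7% of all tested genes were higher as deposited and 6.92% after scaling. Derl3 is an endoplasmic reticulum degradation gene and measured 91.4 to 206 TPM over all libraries. Of the same list, Mzb1 and Cd79a had adjusted p-values of 0.62 and 0.296 by limma, and Tnfrsf17 was below 1 TPM throughout.

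Fcgrt, the neonatal Fc receptor that carries IgG, measured 46.3, 67.7, 40.7 and 54.8 TPM in hSKP2-KI and 22.8, 31.5, 30.0 and 28.7 TPM in WT. It was higher in all 4 hSKP2-KI mice than in any WT mouse, with a log2 fold change of 0.85 (limma adjusted p = 0.00365), and of 0.59 after median-ratio scaling (limma adjusted p = 0.0232). Fcamr, a receptor for IgA and IgM, had a log2 fold change of 0.32 (limma adjusted p = 0.089), and Fcmr did not pass the filter. Of the 2 tested genes of this Fc receptor list, 1 was called higher, beside 32.7% of all tested genes. Without hSKP2-KI replicate 2, 2 of these genes were called. Pigr and Fcgrt thus lay on opposite sides of 0, but this difference between 2 genes was not tested.

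Ltf (Entrez 17002) encodes lactoferrin, an iron-binding antimicrobial protein of exocrine secretions and of neutrophil granules. It measured 4.19, 1.95, 3.54 and 9.31 TPM in hSKP2-KI replicates 1 to 4, and 0.647, 1.16, 2.29 and 0.252 TPM in WT replicates 1 to 4. The genotypes overlapped, since WT replicate 3 lay above hSKP2-KI replicate 2. Mean TPM was 4.75 ± 3.19 (SD, n = 4) against 1.09 ± 0.883 (SD, n = 4), a ratio of 4.37, which was 2.97 without hSKP2-KI replicate 4 and 6.92 without WT replicate 3. The log2 fold change was 1.40 (standard error 0.37), and 1.23 after median-ratio scaling.

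Neutrophil markers were at low levels. The 11 markers summed to 2.81, 6.06, 1.72 and 1.43 TPM in hSKP2-KI and to 1.46, 0.710, 0.692 and 0.404 TPM in WT. Among hSKP2-KI mice, replicate 4 had the highest Ltf and the lowest neutrophil sum, and replicate 2 the lowest Ltf and the highest sum. Among WT mice, replicate 4 had the lowest value of both. Of the markers, 8 were below 1 TPM in every library, among them the granule genes Mpo, Elane, Ngp and Camp, with Camp at 0 throughout. The sums were 1.43 to 6.06 TPM in hSKP2-KI and 0.404 to 1.46 TPM in WT, and the part of neutrophils in the Ltf levels was not tested.

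Of 15 other secreted antimicrobial genes measured, 9 were tested. By limma 5 were higher in hSKP2-KI (Lcn2, Lyz2, Wfdc2, Pglyrp1 and Cp) and 0 lower, beside 32.7% of all tested genes higher. At an unadjusted p under 0.05, 6 were higher and 0 lower. The count of 5 was 3 without WT replicate 1 and 2 under each of the 3 other scalings tried, which after median-ratio scaling were Wfdc2 and Pglyrp1. Wfdc2, an epithelial WAP-domain protein, measured 249, 124, 83.3 and 236 TPM in hSKP2-KI and 27.2, 38.2, 45.0 and 45.1 TPM in WT (log2 fold change 2.01, limma adjusted p = 0.00215, and 1.75 after scaling). Pglyrp1, a peptidoglycan recognition protein, measured 110, 49.2, 31.7 and 83.5 TPM in hSKP2-KI and 17.4, 25.6, 25.7 and 20.4 TPM in WT (log2 fold change 1.45, limma adjusted p = 0.00798, and 1.19 after scaling). For both genes hSKP2-KI replicates 1 and 4 were the high pair.

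Lyz2, the lysozyme of macrophages, measured 117, 419, 146 and 124 TPM in hSKP2-KI and 44.2, 79.9, 101 and 62.9 TPM in WT (log2 fold change 1.31, limma adjusted p = 0.0229, and 1.05 after scaling, limma adjusted p = 0.102). Its high library was hSKP2-KI replicate 2, the mouse with the highest macrophage marker sum. The plasma iron carrier gene Trf and the ferroxidase gene Cp had log2 fold changes of 0.15 (limma adjusted p = 0.703, and -0.11 after scaling) and 0.46 (limma adjusted p = 0.0489), the latter 0.20 after scaling (limma adjusted p = 0.385). Median log2 fold change of the 9 genes was 0.72, and 0.47 after scaling.

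Other genes with von Willebrand D domains were at low levels beside Fcgbp. Of 9 genes, Vwf and Bmper were tested, with log2 fold changes of 0.46 (limma adjusted p = 0.0895) and 0.26 (limma adjusted p = 0.353). Vwf was higher at an unadjusted p under 0.05, and 0 of these genes were called by limma. The count was 1 with a replicate block, without hSKP2-KI replicate 1 and without WT replicate 2. Kcp reached 1.16 TPM in hSKP2-KI replicate 2, and Tecta, Zan, Sspo, Otog, Otogl and Vwde were at most 0.453 TPM in any library.

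Over all 9 lists of 112 genes, 55 were tested, 23 were higher in hSKP2-KI and 0 lower by limma, also 0 lower at an unadjusted p under 0.05, with a median log2 fold change of 0.38. Over all tested genes 32.7% were higher and 1.23% lower, with a median of 0.23. After median-ratio scaling 8 genes of the lists were higher and 3 lower, with a median of 0.13. Of all tested genes, 6.92% were then higher and 4.21% lower. The median over the 8 tested barrier genes was 1.96 as deposited and 1.76 after scaling, which the choice of genes fixes in part.

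**Figure D4:**
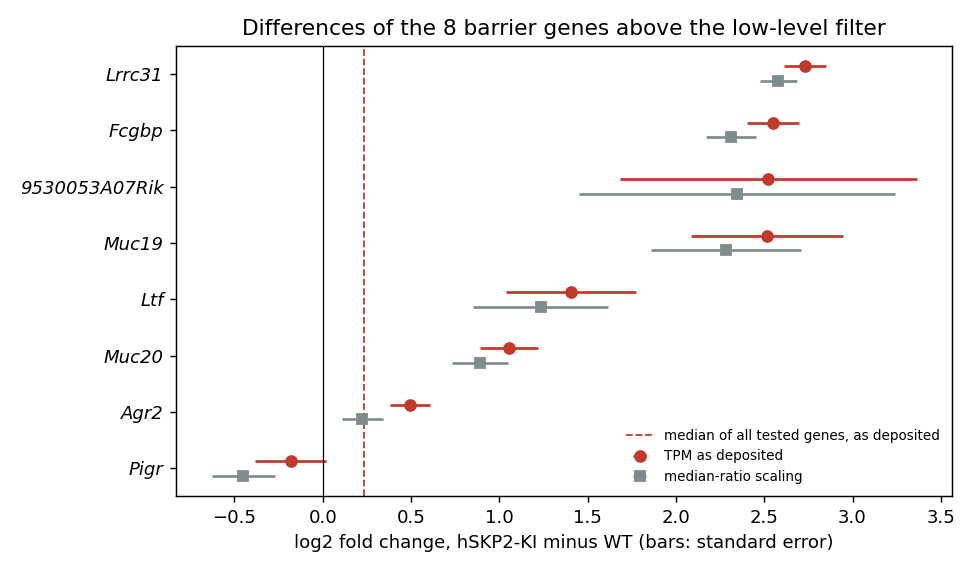
Log2 fold change with standard error of the 8 barrier genes above the low-level filter, hSKP2-KI minus WT on the log2(TPM + 1) scale, from TPM as deposited (red circles) and after median-ratio scaling (grey squares). The dashed line at 0.23 is the median of all 13080 tested genes. Lrrc31, Fcgbp, 9530053A07Rik and Muc19 lie near 2.5, with a wide bar for 9530053A07Rik, and Pigr lies below 0.

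**Figure D5:**
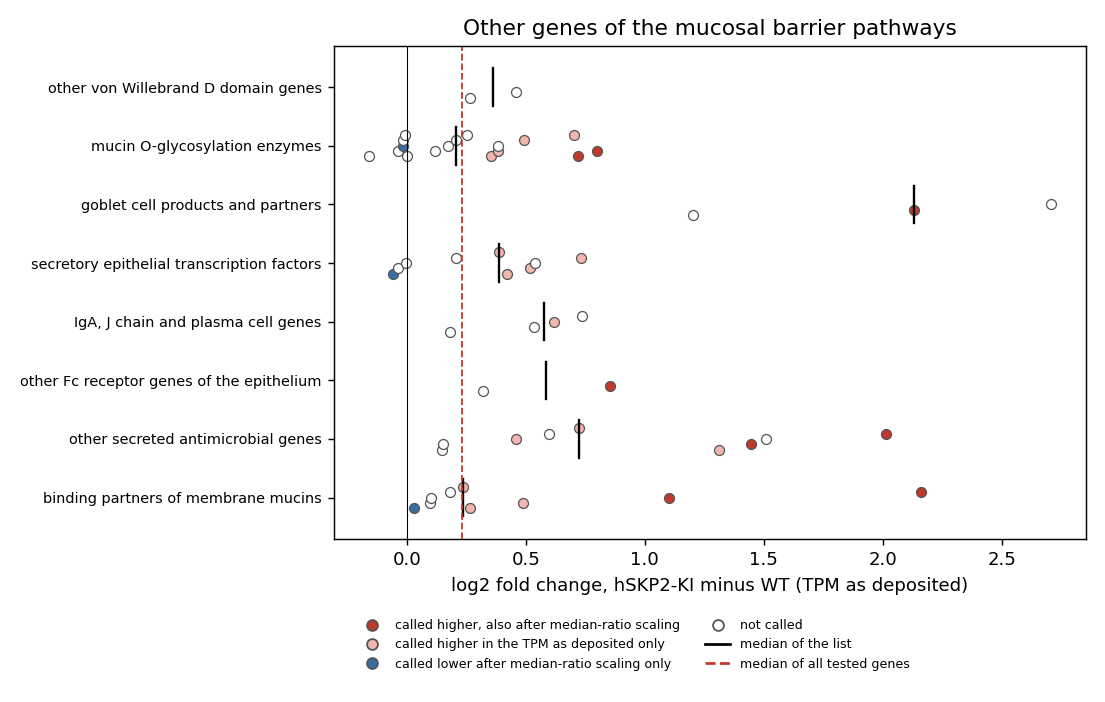
Log2 fold change of each tested gene in 8 lists of other mucosal barrier genes, 1 point per gene, with the median of each list as a black line and the median of all tested genes as a dashed line. Filled points passed the limma test as the key states. Most points lie between 0 and 1, and Itln1, Lgals3, Clca1 and Wfdc2 are the 4 farthest to the right.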

How the data were processed

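Poly-A selected RNA of 8 ventral prostates (4 hSKP2-KI, 4 WT, 12 months old) was sequenced in paired ends by the authors, trimmed and then mapped with CLC software. The submitters' processing notes name mm10 and GRCm38; the software version, annotation, strand setting and counting options are not given in the sources used here. The authors deposited TPM, in which reads per gene are divided by transcript length and each library is scaled to the same total. All 8 libraries sum to 1000000, and the table holds 0 columns of other samples. TPM keep no read counts, so no counting intervals could be given. Beyond the read number that the paper states, the depth of each library is not known here.

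Samples were grouped by the genotype in their labels. Genes reaching 1 TPM in 4 or more of the 8 samples were fitted as log2(TPM + 1) with limma 3.58.1 (R 4.3.3, mean-variance trend), with Benjamini-Hochberg adjustment over all fitted genes and a threshold of 0.05. Fold changes on this scale understate changes of genes with low TPM. The fit was tested on simulated data. Tables and figures were made with Python 3.11.15, pandas 2.3.3 and matplotlib 3.10.9, and promoters were aligned with Biopython 1.88. Gene positions are those of GENCODE and promoter sequences those of RefSeq, both on GRCm38, and 9 of 10 genes had a promoter. The labels and methods give no sequencing batch.

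The 10 genes, the lists of other barrier genes and the marker lists were chosen with earlier results of these data known. All 10 genes were named, with up to 3 genes of largest rise and 3 of largest fall among those called in each list, every gene of lists of up to 9 genes, and the 5 genes nearest to Fcgbp. Smgc, Tgm4, Prph, the genes nearest to Muc19, and all other genes outside this rule were named after their values were seen. Alternatives were a pseudocount of 0.1, no filter, a filter on a mean of 5 TPM or more, quantile normalization, median-ratio scaling, rescaling with the 20 most abundant genes removed, a replicate block, and leaving out each sample.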

Additional observations from a re-analysis of the deposited data

Results flagged for a closer look

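In 8 of the 70 groups of 4 mice examined, the highest mouse stood apart from the nearest of the others in TPM. The gap was a larger share of the group's range than Dixon's critical value. Chance passes that value in about 1 group in 20 only when values are normally distributed and groups are independent. Neither was shown here, since the gaps are those of untransformed TPM and the groups share the same mice. The count of 8 is therefore no test of an excess, and the gaps were not taken on the log2(TPM + 1) scale. 9530053A07Rik in hSKP2-KI replicate 1 stood at 105 TPM, against 3.62 to 5.41 TPM in the other hSKP2-KI mice. WT replicate 2 stood apart for Muc19, at 12.8 TPM against 2.61 to 3.73 TPM in the other WT mice, and for Clca1, at 6.85 TPM against 0.668 to 0.758 TPM. hSKP2-KI replicate 2 stood apart for Lyz2, at 419 TPM against 117 to 146 TPM, for Lgals3, at 139 TPM against 20.2 to 29.6 TPM, and for the macrophage marker sum, at 433 TPM against 212 to 237 TPM. WT replicate 4 stood apart for the epithelial marker sum, at 1074 TPM against 961 to 980 TPM, and for the proximal luminal marker sum, at 233 TPM against 211 to 213 TPM.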

How the results depend on the processing

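Scaling moved the counts most. Genes called higher in hSKP2-KI by limma went from 4272 to 905 with median-ratio scaling, 721 with quantile normalization and 887 without the 20 most abundant genes, and genes called lower from 161 to 551, 605 and 434. Under the same 3 scalings, 4, 4 and 4 barrier genes were called higher in place of 7, and 4 of the 5 tested with a filter on mean TPM of at least 5. Genes of the other barrier lists called higher went from 23 to 8, 6 and 7, and those called lower from 0 to 3, 1 and 1. With each mouse left out, 2839 (without WT replicate 1) to 4548 genes were higher, 114 to 154 lower, 6 to 7 barrier genes higher, and 17 to 23 genes of the lists higher. 9530053A07Rik lost its call with no filter, under each of the 3 scalings and without any 1 WT mouse, and Ltf with no filter and under each of the 3 scalings. Correlations of same-numbered samples after centring on genotype means were 0.22, -0.11, 0.17 and -0.01. Differently numbered samples were not set beside them, so these values cannot settle whether replicate numbers pair the mice. A replicate block gave 4941 genes higher, 187 lower, 7 barrier genes higher and 24 genes of the lists higher. Median-ratio scaling turned several small positive values that were not called negative, among them those of Erbb2 and Erbb3 (0.10 to -0.16), Trf (0.15 to -0.11), Psmc4 (0.13 to -0.14) and Fbl (0.25 to -0.01) and the median of the O-glycosylation list (0.21 to -0.05). The ratio of mean Muc4 TPM was 1.74, and 0.837 without hSKP2-KI replicate 4. Without read counts, values below 1 TPM, such as those of Muc1 and Muc4, cannot be given a counting error.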

Other observations

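Of the 13080 tested genes, those with the largest log2(TPM + 1) gap of hSKP2-KI replicate 4 over all 7 other libraries were Pnliprp1, a pancreatic lipase-related gene, and Mt3, a metallothionein gene. Pnliprp1 measured 364 TPM in that mouse, 55.0 to 84.9 TPM in the other hSKP2-KI mice and 3.18 to 40.9 TPM in WT. Mt3, also the fourth nearest to Muc19, measured 66.2 TPM in that mouse, 11.8 to 16.7 TPM in the other hSKP2-KI mice and 1.57 to 7.05 TPM in WT. In hSKP2-KI replicate 1, after 9530053A07Rik and Tgm4, the next were Prph and Stmn2, both genes of neurons. Prph measured 8.51 TPM in that mouse and at most 2.08 TPM in any other library, and Stmn2 measured 7.91 TPM and at most 2.50 TPM. These libraries and this ordering were chosen after the values were seen, and carry no test.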
